A study of Canis lupus familiaris with 13 samples.

Results

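SYK, LYN, FGR, BTK, PLCG2, TYROBP, FCER1G, TREM2, and SPI1 are a short list of myeloid receptor-signaling genes that was selected on results of these same data. The selection took SYK and LYN to be among the largest early rises shared by the tumors. In the values below, these rises differed widely between tumors, from 1.06- to 38.1-fold for SYK and from 1.61- to 37.3-fold for LYN. The 9 genes were found by symbol among 43427 in the table, and all 9 passed the filter on low counts together with 20118 genes in all. RNA was sequenced from 13 biopsies of 4 tumors in 3 adult female companion dogs with naturally occurring tumors, all of which received IMAX, an intratumoral complex that joins a lithocholic acid-modified polyethyleneimine with paclitaxel and a cyclic dinucleotide that activates STING. Dog RV had a soft tissue sarcoma, dog CL had a cranial and a caudal mammary tumor, and dog BM had a mammary tumor of the left 5th gland. The 4 pretreatment biopsies are called before. The 4 early biopsies followed the second dose by 2 days (RV) or 1 week (CL, BM). Of the 5 late biopsies, those of BM and CL were taken 3 weeks and 1 month after that same dose, whereas those of RV, at the injection site and adjacent to it, were taken 2 weeks after the third dose. No untreated animal was studied, the biopsy times differed between dogs, and each tumor gave 1 library per time apart from the late RV pair, so time in place, repeated biopsy, number of doses, and treatment cannot be told apart. The early and late names group the labelled times by the order of biopsy.

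Myeloid cells sense antibody, debris, and microbes through receptors that have no enzyme activity of their own and that pair with the adaptors TYROBP (DAP12) and FCER1G (the Fc receptor gamma chain). When such a receptor is engaged, a Src-family kinase such as LYN or FGR phosphorylates the ITAM tyrosines of the adaptor, SYK docks there and becomes active, and the signal passes to BTK and to the phospholipase PLCG2, which releases calcium. TREM2 is a lipid-sensing receptor of macrophages and osteoclasts that signals through TYROBP, and SPI1 (PU.1) is the transcription factor that drives myeloid development. Several of these genes are not restricted to myeloid cells, since B cells also use SYK, LYN, BTK, PLCG2, and SPI1, mast cells use FCER1G, LYN, and SYK, and epithelial cells can express SYK and LYN.

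On the dog assembly UU_Cfam_GSD_1.0, which is also known as CanFam4, the RefSeq annotation places SYK at chr1:96615264-96698710, LYN at chr29:7830951-7946216, FGR at chr2:72066735-72088165, BTK at chrX:75678325-75710045, PLCG2 at chr5:70619680-70793735, TYROBP at chr1:117603321-117606485, FCER1G at chr38:22097280-22100221, TREM2 at chr12:10104147-10108997, and SPI1 at chr18:42679725-42695395. All 9 are protein-coding genes.

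The libraries held between 11622444 and 29931125 counts, and no pair agreed within sampling noise. Levels are given as CPM, counts normalized to library size, scaled by TMM, a factor that aligns the bulk of the genes between libraries, and changes are differences of log2 CPM between a posttreatment library and the pretreatment library of the same tumor. The RV library of 2 days stood apart from the other RV libraries, with 12 neutrophil markers higher by 5.57 and 9 epidermal markers higher by 6.61 on average (log2), and the study's pathology of that biopsy described dermatitis without definite tumor cells. Early summaries below are followed by their values without RV. Of the mammary tumors before treatment, CL cranial and BM had a high mean of 12 epithelial markers (7.84 and 7.37 log2 CPM), CL caudal had 3.87, and the RV sarcoma had 1.54. In BM the mean was lower by 3.87 at 3 weeks.

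**Figure D1:**
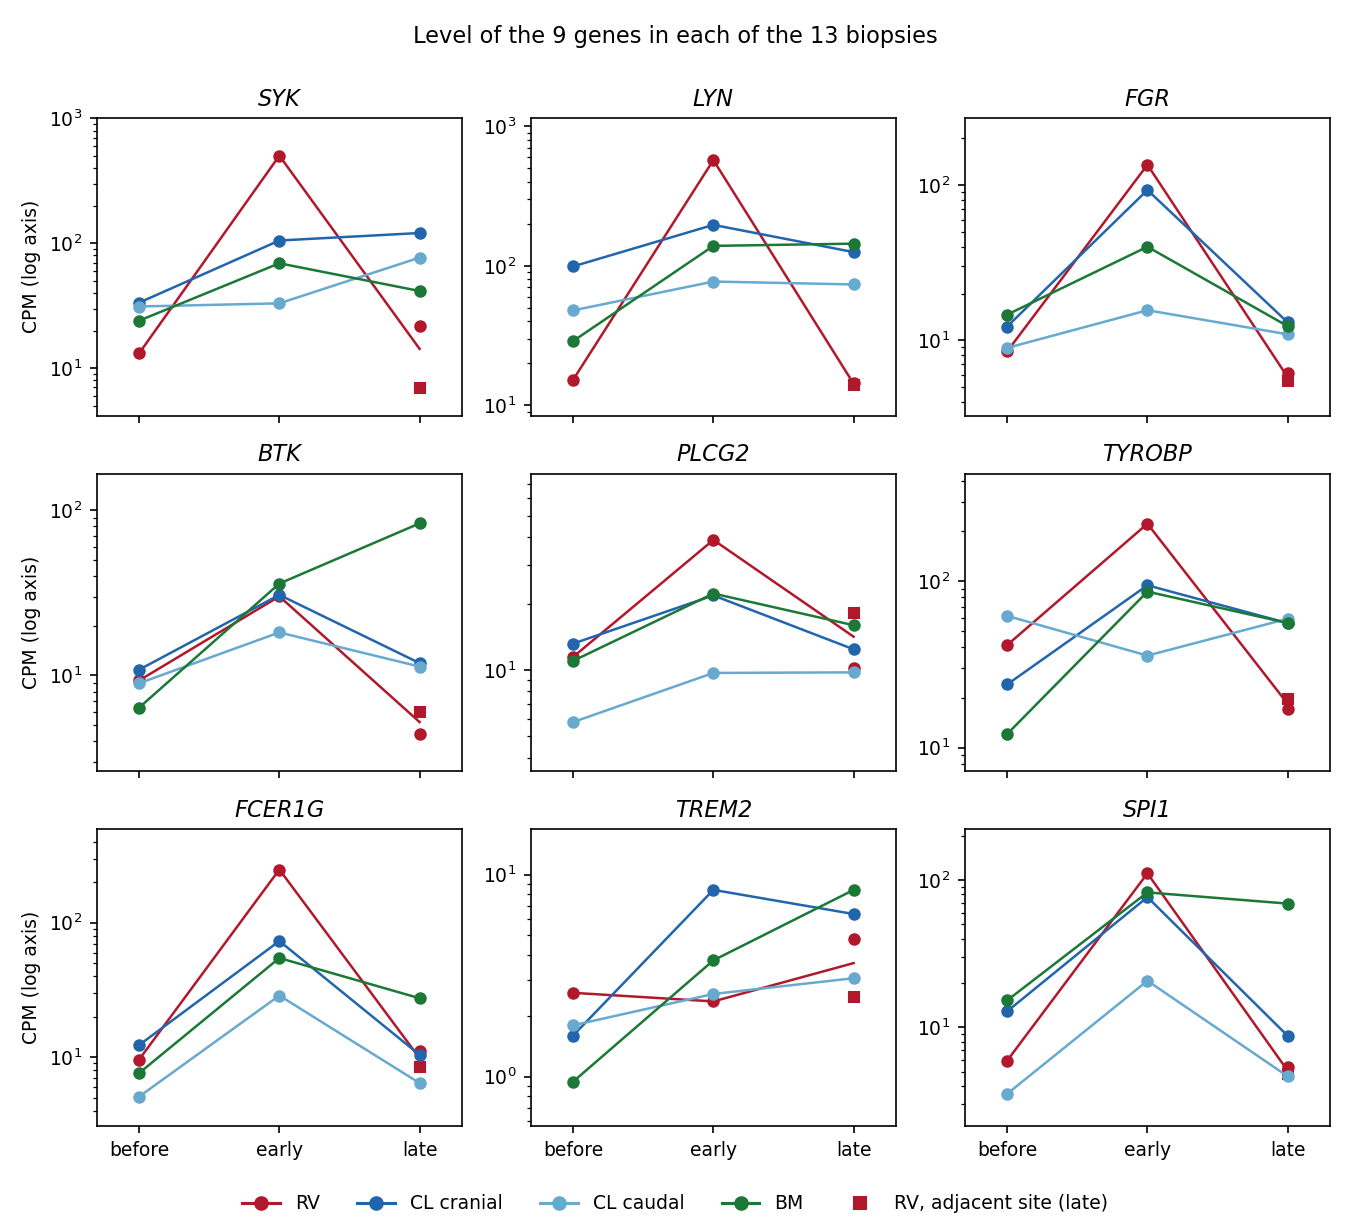
Each panel plots 1 gene as CPM on a log axis against time (before, early, late), with a line per tumor and a square for the late RV site adjacent to the injection site (the RV line runs through the mean of both late sites). SYK and LYN in RV went from 13.1 and 15.3 CPM to 504 and 573 CPM at 2 days and were at 6.95 to 21.6 CPM at 2 weeks, whereas BTK and SPI1 in BM stood at 83.2 and 69.2 CPM at 3 weeks.

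SYK, the kinase that gives the pathway its name, was raised most in dog RV, whose early biopsy showed no definite tumor cells. Before treatment it was at 13.1 CPM in RV, at 33.5 and 31.2 CPM in the cranial and caudal tumors of CL, and at 24.0 CPM in BM. Early it was at 504, 105, 33.0, and 69.2 CPM in the same order of tumors, which is used throughout. The RV, CL cranial, and BM early libraries lay above all 4 pretreatment libraries, while CL caudal stayed within their range. The early changes were 5.25, 1.65, 0.084, and 1.52 (log2; mean 2.13 ± 2.20 SD, n = 4 tumors), so that SYK was 38.1-fold higher in RV and 3.14-fold higher in CL cranial. The CL caudal value was close enough to 0 that scaling by DESeq2 size factors turned it to -0.020.

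LYN, the Src-family kinase that phosphorylates ITAMs and also inhibitory receptors, followed a similar course. Its level before treatment was 15.3, 99.1, 47.9, and 28.9 CPM in RV, CL cranial, CL caudal, and BM, and its early level was 573, 197, 77.2, and 139 CPM. Every tumor was higher than its own pretreatment biopsy, but CL cranial began above the early level of CL caudal, so the groups overlapped. The early changes were 5.22, 0.99, 0.69, and 2.26 (mean 2.29 ± 2.07 SD, n = 4). In RV the changes of SYK and LYN were nearly the same size, and in the mammary tumors neither gene was more than 4.80-fold higher.

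FGR, a Src-family kinase largely of neutrophils and monocytes, was at 8.46, 12.3, 8.91, and 14.6 CPM before and 135, 93.0, 15.6, and 40.1 CPM early. All 4 early libraries lay above all 4 pretreatment libraries, CL caudal by the narrowest margin. The early changes were 3.98, 2.91, 0.80, and 1.45 (mean 2.29 ± 1.44 SD, n = 4).

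BTK, the Tec-family kinase that SYK activates, and PLCG2, the phospholipase that BTK and SYK act on, differed less from their pretreatment levels. BTK was at 9.33, 10.8, 8.97, and 6.39 CPM before and 30.1, 30.7, 18.2, and 36.0 CPM early, and the groups did not overlap. Its early change was the most even of the kinases, at 1.68, 1.49, 1.01, and 2.47 (mean 1.67 ± 0.61 SD, n = 4), and BM rather than RV had the highest. PLCG2 was at 11.5, 13.2, 5.80, and 11 CPM before and 38.9, 21.8, 9.70, and 22.2 CPM early, with early CL caudal below the pretreatment level of each other tumor. The PLCG2 changes of 1.75, 0.72, 0.73, and 1.01 had the lowest mean of the 9 genes (1.05 ± 0.49 SD, n = 4).

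Of the ITAM adaptors, FCER1G was higher in every tumor and TYROBP was not. FCER1G, which carries signals of the activating Fc receptors, was at 9.60, 12.3, 5.09, and 7.61 CPM before and 249, 73.0, 28.7, and 54.6 CPM early. The groups did not overlap, and the changes of 4.68, 2.56, 2.48, and 2.83 were the highest on average among the 9 genes (mean 3.14 ± 1.04 SD, n = 4). TYROBP was at 41.3, 24.0, 61.8, and 12.1 CPM before and 221, 94.3, 35.7, and 86.4 CPM early. It was higher in RV, CL cranial, and BM (2.42, 1.97, and 2.83) and lower in CL caudal (-0.79), the tumor with the highest pretreatment level. TYROBP lies 152 bases from HCST, the adaptor of NKG2D, in the RefSeq annotation, and HCST was at 0.239 CPM before and 0.815 CPM early in CL caudal.

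TREM2 had the fewest counts of the list, with 30 to 209 counts a library. It was at 2.60, 1.60, 1.80, and 0.945 CPM before and 2.36, 8.40, 2.57, and 3.76 CPM early. RV, in which SYK and LYN were raised most, was the tumor in which TREM2 was not higher, with a change of -0.14, and its 95% Poisson intervals of 1.85 to 3.55 CPM before and 1.70 to 3.19 CPM early overlapped (counting error only). The mammary tumors were higher by 2.33, 0.49, and 1.89. SPI1, the myeloid transcription factor, was at 5.93, 12.8, 3.53, and 15.2 CPM before and 111, 76.6, 20.7, and 82.4 CPM early, without overlap. Its changes of 4.21, 2.57, 2.52, and 2.43 were almost equal among the mammary tumors (mean 2.93 ± 0.85 SD, n = 4).

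**Figure D2:**
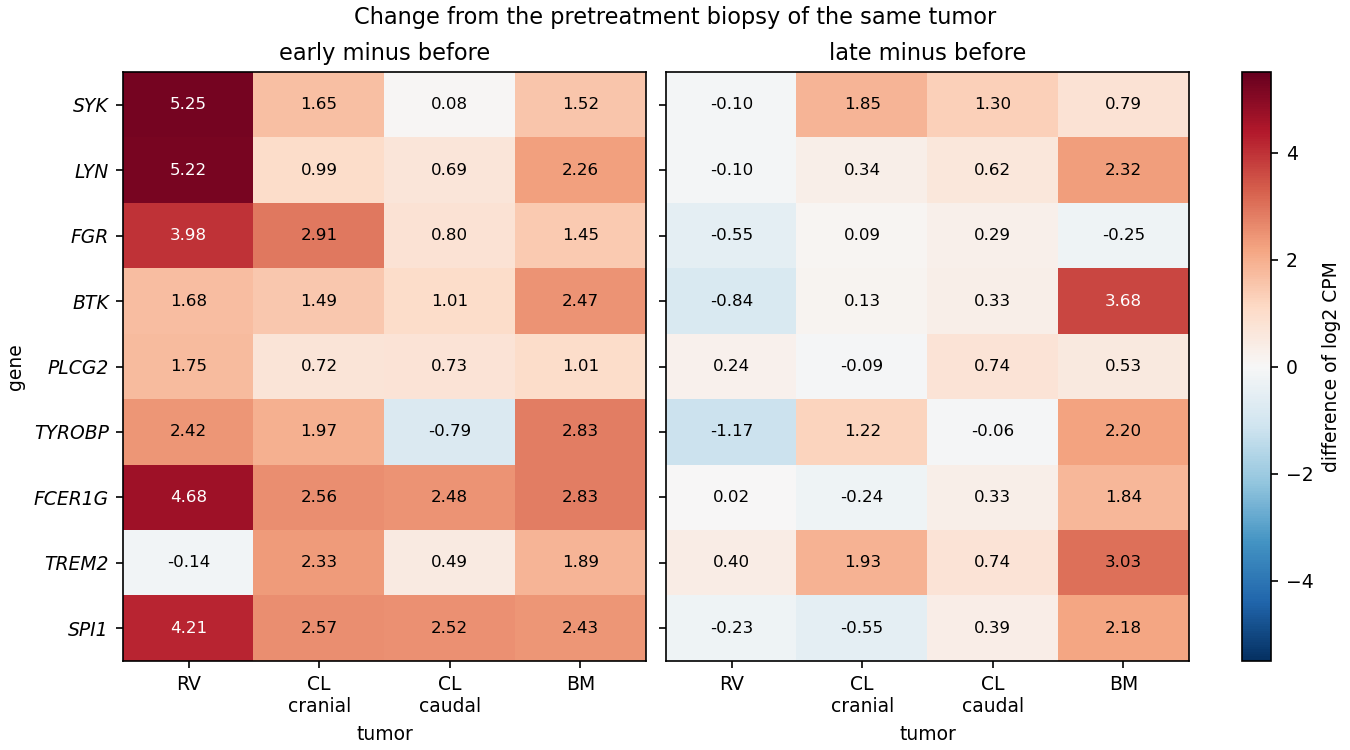
Heat map of the difference of log2 CPM from the pretreatment biopsy of the same tumor, early (left) and late (right), with genes in rows, tumors in columns, and the color scale in log2 units. On the left every cell is above 0 except TYROBP in CL caudal (-0.79) and TREM2 in RV (-0.14), and on the right the RV column is near or below 0 for most genes while BM holds the highest value of LYN, BTK, TYROBP, FCER1G, TREM2, and SPI1.

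The early contrast was used to choose the list, so the following counts describe the selection and were not tested. Higher in all 4 tumors were 7 of 9 genes, all but TYROBP and TREM2, beside 10.8% of all tested genes. Every early library was above every pretreatment library for FGR, BTK, FCER1G, and SPI1, which is 4 of 9 beside 2.71% of all tested genes. The fitted early log2 fold changes, from edgeR with tumor as a block, were 3.31 (SE 0.61) for FCER1G, 3.13 (SE 0.65) for SPI1, 2.82 (SE 1.07) for SYK, 2.81 (SE 1.01) for LYN, 2.60 (SE 0.63) for FGR, 1.77 (SE 0.72) for TYROBP, 1.55 (SE 0.67) for BTK, 1.09 (SE 0.41) for PLCG2, and 1.08 (SE 0.66) for TREM2. The standard errors of SYK and LYN were the widest of the list. Without RV the fitted values were 2.62 for FCER1G, 2.54 for SPI1, 1.82 for FGR, 1.59 for TREM2, 1.51 for BTK, 1.33 for TYROBP, 1.23 for LYN, 1.15 for SYK, and 0.83 for PLCG2, so that SYK and LYN stood lower in the order than with RV. Leaving out RV gave 8 of 9 genes higher in every tumor kept, beside 15.6% of all tested genes. Over all genes, 1 of 20118 passed the early test in that edgeR fit (0.00497%), and 2184 had an unadjusted p under 0.05.

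Macrophage markers were also higher early in every tumor. The mean change of the 14 markers was 1.89 for RV, 2.33 and 0.93 for the CL cranial and caudal tumors, and 2.92 for BM, and their summed level ranged from 404 to 1350 CPM before, 1440 to 3940 CPM early, and 591 to 2000 CPM late. In these bulk biopsies more cells of a type and more RNA per cell cannot be told apart. Neutrophil markers changed by 5.57, 2.99, -1.07, and -0.34 in the same order of tumors (summed level 77.6 to 4170 CPM before, 440 to 7370 CPM early, 65.3 to 1510 CPM late). They were thus higher on average in RV and CL cranial, the tumors with the highest FGR changes. In BM the sum went the other way from the mean early, from 711 to 1250 CPM. The highest late sum was that of BM, where MMP9, which is also in the osteoclast list below, was at 1400 CPM. Mast cell markers changed by 3.46, 0.86, -0.19, and 3.21, B cell markers by 1.06, 1.73, 0.97, and 1.06, T cell markers by 1.56, 3.13, 0.98, and 0.81, and NK cell markers by 0.81, 3.42, 0.63, and 1.84. These are means over genes, and the summed B cell level was lower early in RV (394 to 105 CPM) and CL caudal (81.4 to 54.0 CPM). In CL cranial and BM that sum was higher (79.4 to 89.9 CPM and 55.3 to 165 CPM). General leukocyte markers changed by 2.41, 2.38, 0.33, and 2.05, epithelial markers by 1.76, -0.63, 0.46, and -0.59, and epidermal markers by 6.61, 0.62, 1.08, and -3.56. The summed epithelial level in RV went the other way from its mean, from 988 to 197 CPM. Higher in all 4 tumors were 6 of 14 macrophage, 2 of 12 neutrophil, 2 of 7 mast cell, 4 of 9 B cell, 5 of 10 T cell, 4 of 9 NK cell, 6 of 9 leukocyte, 0 of 12 epithelial, and 1 of 9 epidermal markers that could be tested. Of all tested genes 10.8% were higher early in all 4 tumors, and the neutrophil and epidermal counts were near that share. No marker was under 3 counts in every library. The part of each cell type in the changes of the 9 genes was not tested.

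Set against the macrophage markers of the same library, the genes divided by tumor. In RV the early change of SYK exceeded the mean of those markers by 3.37 and that of LYN by 3.33, and FCER1G, SPI1, and FGR exceeded it by 2.80, 2.32, and 2.10. In CL cranial, CL caudal, and BM, the SYK change was below that of the macrophage markers (-0.68, -0.85, and -1.39), as was that of LYN (-1.34, -0.25, and -0.65). FCER1G and SPI1 exceeded the markers in 3 of 4 tumors, with BM the exception (-0.090 and -0.49). PLCG2 and TREM2 changed by less than the markers in all 4 tumors. The median over the 9 genes was 2.10 in RV and -0.36, -0.20, and -0.65 in the mammary tumors, a description of genes that the early contrast selected. The direction in the mammary tumors depended on the markers: against the leukocyte markers the median was 1.57 in RV and -0.41, 0.41, and 0.21 in the mammary tumors, and LYN was at 2.81, -1.40, 0.36, and 0.21.

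**Figure D3:**
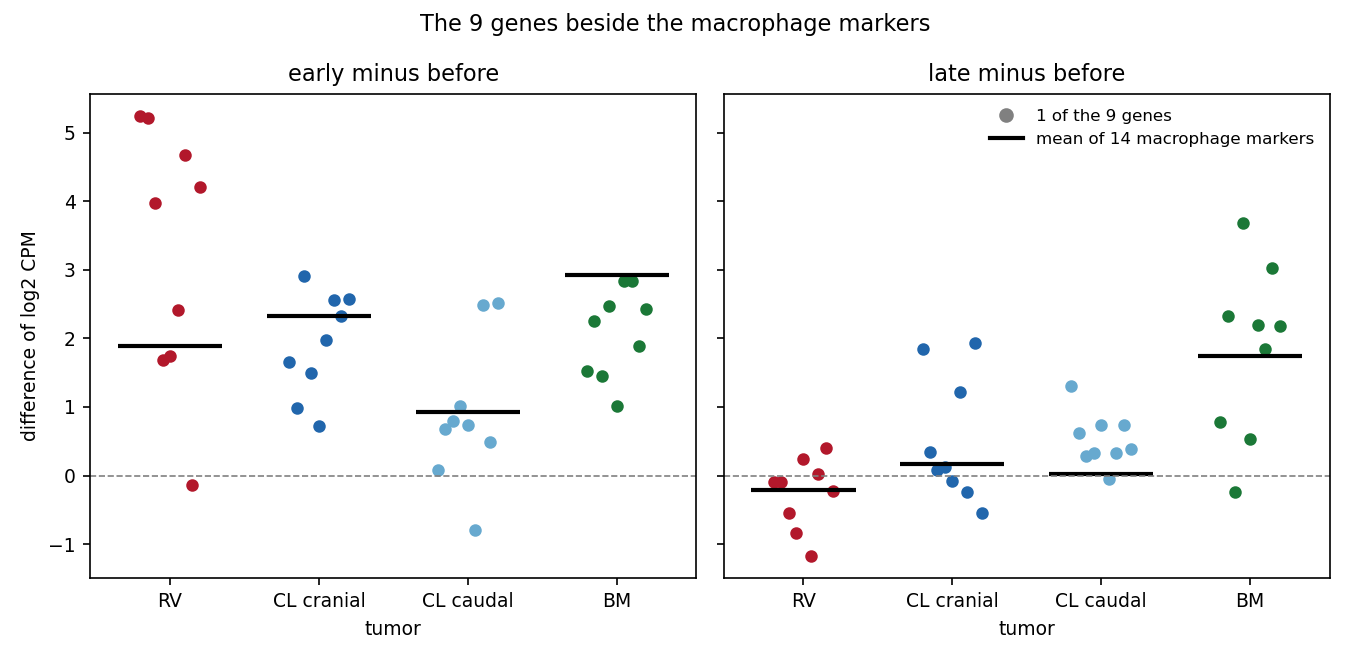
Changes of the 9 genes (points, vertical axis, difference of log2 CPM) by tumor (horizontal axis and color), early and late. A black bar in each tumor marks the mean change of the 14 macrophage markers, and a dashed line marks no change. Early in RV, SYK and LYN lie 3.37 and 3.33 above the bar, and in the mammary tumors both lie below it.

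The late biopsies were not used to choose the list, although the pretreatment libraries are shared, so the late contrast is where the 9 genes can be tested. None of the 9 passed the edgeR quasi-likelihood test after Benjamini-Hochberg adjustment (adjusted p 0.973 to 0.988), beside 0% of all tested genes called. At an unadjusted p under 0.05 edgeR gave 1 of the 9 genes (TREM2), beside 4.0% of all tested genes. DESeq2 called 0 of the 9, beside 0.0348% of all tested genes. It also gave 1 at an unadjusted p under 0.05, beside 8.35%. The median late log2 fold change of the 9 genes was 0.43, against -0.047 over all tested genes. Above 0 were 8 of 9, beside 46.9% of all tested genes. A low pretreatment value raises both the early and the late contrast, and its part was not tested. With 4 tumors the exact sign-flip test cannot reach 0.05, and the smallest p it can give rounds to 0.13.

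TREM2 had the largest late estimate of the list, at 1.44 (SE 0.63, 95% interval 0.064 to 2.82), with an edgeR adjusted p of 0.973 (0.0417 unadjusted). It was at 4.82 CPM at the RV injection site, 2.48 CPM at the adjacent site, and 6.38, 3.07, and 8.40 CPM in the mammary tumors. With the RV sites averaged, TREM2 was higher than before in 4 of 4 tumors (0.40, 1.93, 0.74, and 3.03), which gives p = 0.13 in the exact two-sided sign-flip test. It was the only 1 of the 9 genes higher in all 4 tumors late, beside 7.13% of all tested genes. The adjacent RV site, at 2.48 CPM, was not above the pretreatment 2.60 CPM of that tumor. TREM2 also exceeded the change of the macrophage markers in 4 of 4 tumors late (0.61, 1.77, 0.72, and 1.28, with the RV sites averaged). LYN did so as well, by less (0.11, 0.18, 0.60, and 0.57). Without BM the fitted value of TREM2 was 0.95.

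SYK and LYN were above their pretreatment levels in each mammary tumor, while in RV the sites lay on either side of the pretreatment SYK level and just below that of LYN. SYK was at 21.6 and 6.95 CPM at the RV injection and adjacent sites, and at 121, 76.8, and 41.5 CPM in the mammary tumors. CL cranial and CL caudal at 1 month were above their own early level, at 105 and 33.0 CPM. The fitted late value of SYK was 0.97 (SE 0.87, 95% interval -0.93 to 2.87). LYN was at 14.5 and 14.1 CPM at the RV sites and at 125, 73.5, and 144 CPM in the mammary tumors, with a fitted value of 0.70 (SE 0.83, 95% interval -1.12 to 2.52). Both intervals hold 0, and they also hold the early values fitted without RV, 1.15 and 1.23. For each gene the exact two-sided sign-flip p was 0.25.

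Of the remaining genes, BTK, TYROBP, SPI1, and FCER1G were 12.8-, 4.61-, 4.52-, and 3.57-fold higher than before in BM, and elsewhere TYROBP in CL cranial (2.33-fold) was the only 1 more than 2-fold higher. FGR was at 6.10 and 5.44 CPM at the RV sites and at 13, 10.9, and 12.3 CPM in the mammary tumors, with a fitted late value of -0.19 (SE 0.54, 95% interval -1.38 to 1.0). PLCG2 was at 10.2 and 18.1, then 12.4, 9.76, and 16.0 CPM, with a fitted value of 0.34 (SE 0.39). These late levels of both genes overlapped the pretreatment levels. FCER1G was at 11.2 and 8.47, then 10.4, 6.41, and 27.4 CPM (0.42, SE 0.54), and TYROBP was at 17.0 and 19.7, then 55.9, 59.4, and 56.0 CPM (0.37, SE 0.65). TYROBP was below its pretreatment 41.3 CPM at both RV sites. BTK was at 4.41 and 6.05, then 11.9, 11.3, and 83.2 CPM (0.65, SE 0.67), and SPI1 was at 5.36 and 4.78, then 8.74, 4.64, and 69.2 CPM (0.43, SE 0.59). BM thus had the highest late level of BTK, SPI1, FCER1G, and LYN. The exact two-sided sign-flip p of these genes was between 0.25 and 0.75.

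**Figure D4:**
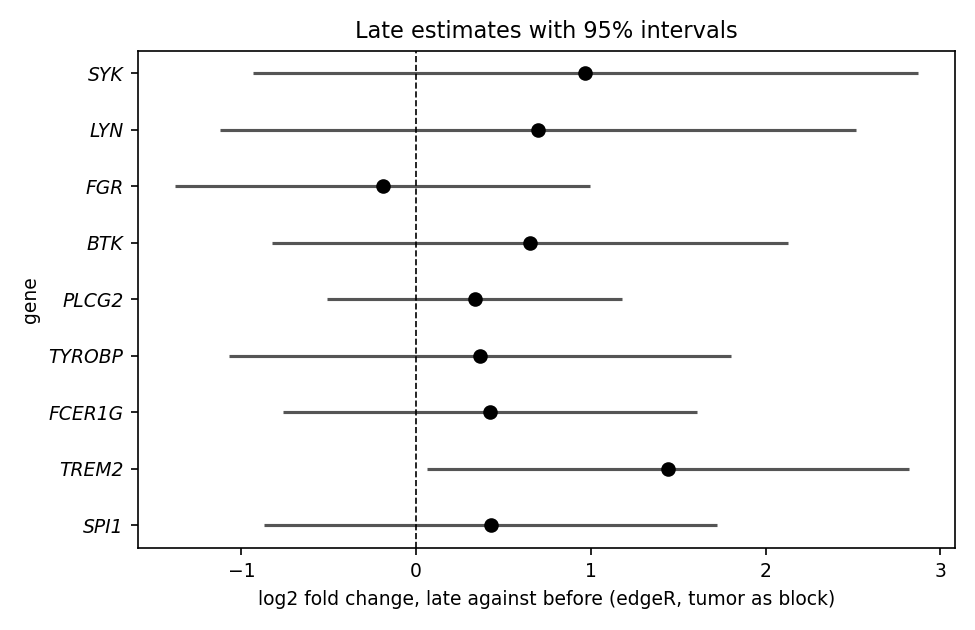
Late against before log2 fold change of each gene from edgeR with tumor as a block (points) with 95% intervals (lines), over all 13 libraries. The interval of TREM2 (0.064 to 2.82) alone lies above 0, its adjusted p is 0.973, and the other 8 intervals hold 0.

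The late values of several genes rested on BM. Without BM the fitted late change of BTK was -0.22 (0.65 with all tumors), of SPI1 -0.22, of TYROBP -0.15, of FCER1G -0.071, and of LYN 0.15. Without RV, BTK was at 1.44, SPI1 at 0.84, TYROBP at 0.93, FCER1G at 0.71, and FGR at 0.054, and without CL cranial SYK was at 0.61. In the BM biopsy of 3 weeks, which the study described at surgery with features of osteosarcoma, markers of osteoclasts (bone-resorbing cells of the myeloid lineage) were also higher. These 10 markers were chosen after the values were seen. Their summed level in BM was 127 CPM before, 475 CPM early, and 5100 CPM late. Of these markers 9 of 9 that could be tested were higher late in BM. Their median change was 5.06, against -0.067 over all tested genes in BM. ACP5, the tartrate-resistant acid phosphatase, went from 4.39 to 21.6 to 778 CPM, and CTSK, the collagen-degrading cathepsin K, from 77.9 to 383 to 2600 CPM. The median late change of the same markers was -0.28 in RV and -0.95 and 0.53 in the cranial and caudal tumors of CL. A high sum was not particular to BM, since RV had 2310 CPM before and 2460 and 3330 CPM at the late sites. CTSK made up 2230, 2420, and 3260 CPM of these RV sums. The macrophage markers in BM were higher by 1.74 at that time, and BTK and TREM2 exceeded this by 1.94 and 1.28. The part of these cells in the BM values was not tested.

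Late against early, FGR, FCER1G, and SPI1 were lower in all 4 tumors, 3 of 9 genes beside 17.4% of all tested genes, and since the early values chose the list this is a description. The mean differences were -2.39, -2.65, and -2.48. The SYK difference was -5.35 in RV and -0.74 in BM, and 0.20 and 1.21 in the cranial and caudal tumors of CL. TREM2 was higher late than early in 3 of 4 tumors (mean 0.38 ± 0.64 SD, n = 4). By site, the late change in RV was 0.71 (injection) and -0.91 (adjacent) for SYK. The late RV sites, which came from 1 mass on the same day, differed by 1.62 for SYK and 0.93 for TREM2 (injection minus adjacent) and by -0.83 for PLCG2. The median size of that difference was 0.40 over the 9 genes and 0.48 over all tested genes.

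A wider list of 101 genes of ITAM and Src-family signaling, written from general knowledge with earlier results of these data known, gave 95 genes that could be tested. In edgeR 0 of 95 passed the early test (smallest adjusted p 0.117), 53 had an unadjusted p under 0.05, all of them higher, beside 10.9% of all tested genes, and DESeq2 called 38, all higher, beside 4.75% of all tested genes. The median early change was 1.79 against 0.25 over all tested genes, 90 of 95 were above 0 beside 60.3% of all tested genes, and 48 were higher in all 4 tumors with 0 lower in all 4, beside 10.8% of all tested genes higher. Without RV 94 could be tested, the median was 1.41 against 0.055 over all genes, 46 had an unadjusted p under 0.05 beside 6.51%, and 56 of 95 were higher in all 3 mammary tumors beside 15.6%. Late, edgeR and DESeq2 each called 0, with 5 and 9 genes at an unadjusted p under 0.05 beside 4.0% and 8.35% of all tested genes, so that both were near the share over all genes. The late median was 0.45.

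The counts by role stand beside the same 10.8% of all tested genes higher early in all 4 tumors and 7.13% late, and the medians without RV are given after each. The 16 receptors had a median early change of 2.25 (1.94 without RV), and 9 were higher in all 4 tumors. TREM1, which amplifies neutrophil and monocyte responses through TYROBP, had a fitted change of 3.70 (SE 1.14), ranged from 0.28 in CL caudal to 6.57 in RV, and was at 1.94 without RV. ITGB2, the leukocyte integrin chain, had 3.28 (SE 0.61) and was at least 2.20 in every tumor, and NCR1, the natural cytotoxicity receptor NKp46, had 3.85 (SE 0.98) but did not pass the filter on low counts without RV. Of 22 kinases and adaptors, 11 were higher in all 4 tumors (median 1.36, and 1.44 without RV). The adaptor LCP2 (SLP-76) had 2.84 (SE 0.86), and LAT2, the non-T cell activation linker, had 2.47 (SE 0.57), and they were at 1.68 and 1.92 without RV. The 23 effectors had a median of 1.87 (1.41 without RV), with 11 higher in all 4 tumors. Among them were NCF1 at 3.49 (SE 1.0) and RAC2 at 3.14 (SE 0.73), both parts of the phagocyte NADPH oxidase, at 2.16 and 2.86 without RV.

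Most genes listed under inhibitors were higher early as well. That role was assigned broadly, and it holds genes, such as SIGLEC1 and PTPRC, that are not simply inhibitors of this signaling. Of 23 genes so listed 15 were higher in all 4 tumors early (median 1.95, and 1.52 without RV) and 6 late (median 0.45). SIGLEC1, the sialic acid-binding receptor CD169 of macrophages, had a fitted early change of 3.92 (SE 0.69), DOK3, an adaptor that restrains SYK and BTK signaling, had 3.57 (SE 0.98), and PILRA, an inhibitory paired receptor, had 3.27 (SE 0.78). Without RV these were at 3.18, 2.36, and 2.25. The 11 transcription factors had the lowest median of the roles, at 0.48 early (0.52 without RV), and 2 were higher in all 4 tumors, among them IRF8, a factor of monocyte and dendritic cell development, at 1.67 (SE 0.47) and 1.66 without RV. None of these named genes had a late adjusted p under 0.973 in edgeR.

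Within the tumors the 9 genes did not all vary alike. Pearson's r of log2 CPM after each tumor's mean was subtracted, over 13 libraries that share tumors and a treatment course, had a median of 0.80 over 36 pairs and is a description. FCER1G and SPI1 were the most alike (0.99), SYK and LYN had 0.92, and FGR and TREM2 were the least alike (0.11). TREM2 reached no more than 0.58 with any other member. These values depended on RV: over the 9 libraries without it the median was 0.74, SYK and LYN had 0.63, TREM2 reached 0.87 with LYN, and FCER1G and SPI1 kept 0.99. Among 13936 genes with a mean of at least 1 log2 CPM, those closest to SYK were SRGAP2 (0.986), ZNRF1 (0.978), SQOR (0.977), IER5 (0.974), and LOC119877688 (0.973). Closest to LYN were TBC1D1 (0.978), MTHFS (0.969), SQOR (0.968), UBASH3B (0.967), and PREX1 (0.962), so that SQOR stood in both lists. Without RV the same genes had 0.842 to 0.975 with SYK and 0.754 to 0.949 with LYN. The mean of the 9 genes was closest to LCP1 (0.997), PIK3CG (0.984), PLEK (0.978), LAT2 (0.977), and EVI2B (0.977), of which LCP1 encodes the leukocyte actin-bundling protein L-plastin and PIK3CG the catalytic subunit of phosphoinositide 3-kinase gamma. Without RV these had 0.952 to 0.994.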

How the data were processed

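Strand-specific RNA-seq libraries were made from 13 tumor biopsies. Alignment by the authors used Strand NGS and the CanFam4.0 genome. The deposited table holds unnormalized gene counts, and the submitters' processing notes also name edgeR. The counting rule and annotation were not given in the sources used here. RefSeq symbols (UU_Cfam_GSD_1.0) matched 98.0% of 43427 gene names. BTK overlaps LOC119868480, which had at most 35 counts. The members and lists were chosen with earlier results of these data known.

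From the counts, edgeR 4.0.16 (R 4.3.3) was run with filterByExpr (minimum count 10), TMM, robust quasi-likelihood fits, and tumor as a block over all 13 libraries, with Benjamini-Hochberg adjustment over 20118 genes and a threshold of 0.05. Log2 CPM used a prior count of 2. The late test rests on 7 residual degrees of freedom before moderation, and a common biological coefficient of variation of 0.672. On simulated late against before counts with 200 genes changed 4-fold, 9 were recovered at that variation and 196 at 0.2. DESeq2 1.42.0, another filter, scaling, prior count, and block, and leaving out each tumor were alternatives. The wider list and the likeness of genes without RV were added after the data were seen.

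Libraries of a tumor came from the same mass, which is the source of the pairing. Deviations of before and late libraries from their group means correlated at 0.573 on average within tumors and -0.187 between them (before and early 0.229 and -0.0707). Subtracting the group means largely ties the value between tumors to that within them, so it is no separate evidence. For RV the before and early value was -0.053. CL gave 2 tumors, so tumors are not all independent, and p-values measure the spread between these biopsies.

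Named genes were the 9 members, up to 3 genes per role of the wider list with the largest early change in 1 direction in all 4 tumors, and the 5 genes most like SYK, LYN, and the mean of the members. Some genes that this rule names are not reported here. Of the added marker list of osteoclasts, ACP5 and CTSK were named after their values were seen. Other tables were made with Python 3.11.15.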

Additional observations from a re-analysis of the deposited data

Results flagged for a closer look

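SPI1 in BM at 3 weeks was far from the other late libraries, at 6.11 log2 CPM (69.2 CPM) against 2.24 to 3.14 in the other 4. It was 1 such value among 27 groups of libraries examined, in which chance alone gives about 1.35. In the same biopsy BTK (83.2 CPM) and the summed osteoclast markers (5100 CPM) were at their highest among the 13 libraries, and the part of those cells was not tested.

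RV moved against all 3 mammary tumors in 4 of 18 comparisons of a gene at a time, and in none of them was the difference itself tested. The share of all tested genes with such a pattern is not given here, so whether this count is unusual cannot be told. With the late RV sites averaged, SYK was at -0.097 in RV and between 0.79 and 1.85 in the mammary tumors, LYN was at -0.096 against 0.34 to 2.32, and BTK was at -0.84 against 0.13 to 3.68. For SYK this rests on the averaging, since the injection site was at 0.71 and the adjacent site at -0.91, while LYN (-0.078 and -0.11) and BTK (-1.06 and -0.62) were below 0 at both sites. Early, TREM2 was at -0.14 in RV and between 0.49 and 2.33 in the mammary tumors. Tumor type, dog, biopsy time, and, late, the number of doses cannot be told apart in these differences.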

How the results depend on the processing

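No late test of a member crossed the threshold in 108 alternatives, and the direction was kept in 103. The exceptions were FGR without RV (0.054) and, without BM, BTK (-0.22), TYROBP (-0.15), FCER1G (-0.071), and SPI1 (-0.22). All 90 early alternatives kept the members' direction, with SYK between 1.15 and 3.49 and LYN between 1.23 and 3.51. The count of all genes called late was 0, and 7 with DESeq2. The count called early was 1, and became 0 with DESeq2 size factors, 0 without the replicate block, 0 with dog as the block, 0 with only the compared libraries, 0 to 0 with each tumor left out, 17 without the filter, and 956 with DESeq2. Without the block the late value of BTK was 1.40 and that of SPI1 0.98, and no other call changed. Members higher late in all tumors were 1 of 9, beside 7.13% of all tested genes. With the RV injection site alone they were 2 and with the adjacent site alone 0, without a share over all genes. With a tumor left out they were 1 (without CL caudal or BM), 3 (without CL cranial), and 4 (without RV). The share of all tested genes was then 11.8% to 14.2%. Leaving out a tumor for this count was added after the data were seen. The late median of the members relative to macrophage markers was 0.12, between 0.045 and 0.45 with a tumor left out, and -0.17 relative to leukocyte markers. The median early change of the wider list was 1.79, and 1.41 without RV (also added). At the measured variation few 4-fold changes can be called, so a p over the threshold does not show that a gene was level.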

Other observations

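Src-family and Tec-family kinases outside the list did not all follow SYK and LYN in RV. These genes were chosen after their values were seen. LCK and ZAP70, the T cell counterparts of LYN and SYK, differed early by 0.0084 and -0.0024 in RV, by 3.33 and 3.34 in CL cranial, by 1.51 and 2.07 in CL caudal, and by 1.48 and 0.73 in BM. T cell markers were higher early by 1.56 on average in RV and by 3.13, 0.98, and 0.81 in the mammary tumors. RV was thus second in that mean and had the lowest value of both kinases. The marker list holds CD4, and its summed level in RV went from 42.2 to 600 CPM. The study described a low number of T cells by CD3 staining in that RV biopsy. Whether the contrast with the kinases rests on single markers was not tested. BLK, a Src-family kinase of B cells, was higher by 1.53 to 2.02 in every tumor. SRC itself was higher by 3.15 in CL caudal and by at most 0.56 elsewhere, and YES1, a widely expressed Src-family kinase, was at -2.50 in RV and at -1.01, -0.79, and 0.40 in the mammary tumors.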
